A study of Rattus norvegicus with 30 samples.

Results

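The Bcl2 family and the caspases decide whether a stressed cell lives or dies, and their transcripts were followed here in rat hippocampus after kainate. The members were chosen as every probe set annotated to exactly 1 of the 9 genes Bcl2, Bcl2l1, Bcl2l11, Bax, Bad, Mcl1, Casp1, Casp2 and Casp6. A probe set is a group of short oligonucleotides on an Affymetrix array that together report 1 signal for a transcript. The rule found 7 of the 4736 genes that have a probe set of their own, with 21 probe sets among the 8740 probe sets that are not array controls. No probe set was annotated to Bax alone, since its 3 probe sets also list a second gene, and none carried the name Mcl1, so neither gene was analysed here. Of the 21 probe sets, 13 passed the filter on dim probe sets and were tested, with at least 1 for each of the 7 genes, and 8 were too dim.

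Total RNA came from the hippocampus of rats given kainate, an agonist of glutamate receptors that provokes seizures, or phosphate-buffered saline (PBS), and killed 1, 6, 24, 72 or 240 h later. The kainate groups and the PBS groups hold 3 arrays at each of the 5 times, 30 arrays in all. The labels give no strain, sex, age, dose or route, do not say whether each array is 1 animal, and name no genetic change, so the p-values speak of the spread among arrays, which may be technical. The deposited signals had a trimmed mean between 150.1 and 150.2 on all arrays, and replicate arrays correlated with a median r of 0.947. In whole tissue, fewer cells of a type and less RNA per cell cannot be told apart. Of markers of brain cells, 17 of 20 for neurons, 11 of 12 for astrocytes and 8 of 10 for myelin had a tested probe set; these do not tell the hippocampus from other brain regions. By the control probe sets, PBS replicate 1 of 24 h stood apart, with a log2 ratio of the 3-prime to the 5-prime end of 2.29 for hexokinase and −0.36 for Gapdh, against 1.04 to 1.43 and 0.02 to 0.07 on the other 5 arrays of 24 h.

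Bcl2 and Bcl2l1, which encodes Bcl-xL, protect cells by holding the outer mitochondrial membrane closed. Bax opens that membrane, and the BH3-only proteins Bim (gene Bcl2l11) and Bad set it free by binding the protective proteins. Caspases are proteases that carry out the death programme: Casp2 is an initiator, Casp6 an executioner that also acts in axons, and Casp1 is an inflammatory caspase that matures interleukin-1 beta and interleukin-18. Mcl1 is a further protective protein. Kainate seizures are known for the loss of hippocampal pyramidal neurons, and much of the control over these proteins is by phosphorylation, binding and cleavage, which an array of transcripts does not measure.

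The start regions of 3 members are shown because Bcl2 is the gene with a passing change, Casp1 has a further dim probe set that moved, and Bcl2l11 is known as a gene switched by FoxO factors. Each window runs from 250 bases before the start of transcription to 50 bases after it, and the sequences are from RefSeq on build GRCr8. RefSeq windows were found for 8 of the 9 genes. Capitals mark matches on either strand to 4 motifs: TGACG, the core of the element bound by CREB, TGANTCA, bound by AP-1, GTAAACA, bound by FoxO factors, and GAAA followed by any 2 bases and a second GAAA, bound by interferon regulatory factors.
Bcl2, chr13:23366851-23367150, minus strand: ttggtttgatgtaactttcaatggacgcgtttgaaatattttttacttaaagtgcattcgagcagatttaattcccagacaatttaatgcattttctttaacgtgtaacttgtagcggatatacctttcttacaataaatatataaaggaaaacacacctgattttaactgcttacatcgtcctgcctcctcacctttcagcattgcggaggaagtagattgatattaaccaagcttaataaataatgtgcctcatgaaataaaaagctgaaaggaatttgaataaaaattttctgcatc
Casp1, chr8:10872580-10872879, plus strand: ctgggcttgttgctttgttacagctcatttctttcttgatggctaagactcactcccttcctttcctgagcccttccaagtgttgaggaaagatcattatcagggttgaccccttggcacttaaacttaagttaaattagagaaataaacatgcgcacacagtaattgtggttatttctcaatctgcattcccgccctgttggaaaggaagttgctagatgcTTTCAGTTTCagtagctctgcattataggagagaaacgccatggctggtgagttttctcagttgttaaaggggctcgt
Bcl2l11, chr3:135819792-135820091, plus strand: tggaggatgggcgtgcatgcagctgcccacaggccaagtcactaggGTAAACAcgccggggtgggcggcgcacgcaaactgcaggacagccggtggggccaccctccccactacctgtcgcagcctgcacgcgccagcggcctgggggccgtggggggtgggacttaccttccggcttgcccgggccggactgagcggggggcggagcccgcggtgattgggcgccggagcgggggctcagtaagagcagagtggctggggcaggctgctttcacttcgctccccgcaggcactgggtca
The Bcl2 window held none of the 4 motifs. The Casp1 window held 1 match to the paired GAAA motif, on the opposite strand, which starts 28 bases before the transcript and is found in 3.92% of the 33469 promoter windows. The Bcl2l11 window held 1 match to GTAAACA, which starts 204 bases before the transcript and is found in 3.78% of windows. Bad also held a match to GTAAACA, 118 bases before its start, and Mcl1 1 to TGACG, a motif found in 21.2% of windows. No member window held TGANTCA, found in 7.33% of windows. These matches describe letters in a window and say nothing of binding.

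Bcl2 was the 1 member that fell beyond the test's threshold, and it did so at 24 h. On the array its tested probe set, L14680_g_at, had signals of 76.8, 57.4 and 52.8 in the kainate group at 24 h, against 102, 82.7 and 108 in the PBS group. The highest kainate array lay below the lowest PBS array. The kainate mean was 62.3 ± 12.7 and the PBS mean 97.6 ± 13.2 (SD, n = 3 each), a 1.58-fold lower level (log2 difference −0.66 ± 0.21 SE, limma adjusted p = 0.0397). At 24 h 1 of 13 tested member probe sets passed, where 11.3% of all 6303 tested probe sets did. By direction 1 of 13 fell and 0 rose, where 6.3% of all fell and 5.03% rose. The median log2 difference of the 13 was −0.14 and that of all tested probe sets −0.05. The share of members called at 24 h, 1 of 13, lay near the share of the whole array.

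The call at 24 h depended on single arrays and on the scaling. It was lost without kainate replicate 2 (adjusted p = 0.0894) or 3 (adjusted p = 0.172) and without PBS replicate 1 (adjusted p = 0.0971) or 3 (adjusted p = 0.133), while the log2 difference stayed between −0.82 and −0.55 in the 6 limma fits without 1 array of 24 h. It was also lost with quantile normalization (log2 difference −0.59, adjusted p = 0.0695) and in a limma fit of the 6 arrays of 24 h alone (adjusted p = 0.158). The other Bcl2 probe sets were too dim to be tested: L14680_at lay between 1.00 and 20.5 and S74122_s_at between 6.95 and 17.7 over the 30 arrays, both under the filter level of 35.2 on every array. The mean over the 3 Bcl2 probe sets, with values under a floor of 10.95 set to it, differed by −0.18 on the log2 scale at 24 h (adjusted p = 0.517).

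**Figure D1:**
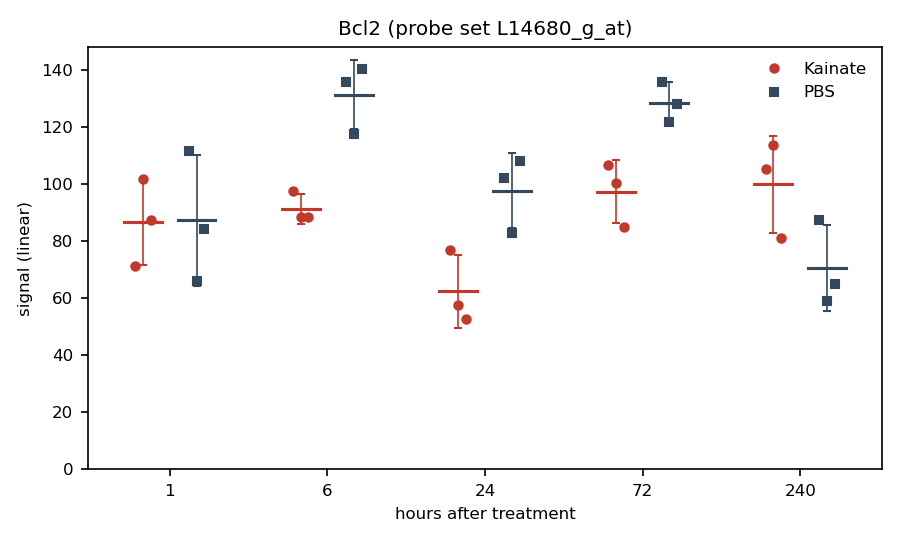
Signal of Bcl2 (probe set L14680_g_at, linear scale) on each of the 30 arrays by hours after treatment, with kainate as circles and PBS as squares; horizontal lines are group means and error bars SD (n = 3). Kainate arrays lie below all PBS arrays at 6, 24 and 72 h, the groups overlap at 1 h, and at 240 h the kainate mean of 99.9 lies above the PBS mean of 70.4.

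At the other times Bcl2 did not pass. At 1 h the signals were 71.1, 102 and 87.3 after kainate, against 111, 66.0 and 84.2 after PBS, and the groups overlapped (log2 difference 0.01, 95% interval −0.42 to 0.43). At 6 h they were 97.4, 88.4 and 88.2 after kainate, against 136, 118 and 140.4 after PBS. All kainate arrays of 6 h lay below all PBS arrays, but the log2 difference of −0.52 ± 0.21 missed the threshold (limma adjusted p = 0.205). With array weights (log2 difference −0.56, adjusted p = 0.0226), and in a fit of the arrays of 6 and 72 h without the rest (adjusted p = 0.0316), it passed. The share of all probe sets passing in those fits is not given here. At 72 h the signals were 107, 100.3 and 84.9 after kainate, against 136, 122 and 128 after PBS, again without overlap (log2 difference −0.41, 95% interval −0.83 to 0.02, adjusted p = 0.780).

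At 240 h the order of the groups was turned round. The kainate arrays read 105, 114 and 80.9 and the PBS arrays 87.4, 58.8 and 65.0, so that 2 of 3 kainate arrays lay above every PBS array and the groups overlapped. The log2 difference at 240 h was 0.51 (95% interval 0.09 to 0.94) and missed the threshold (limma adjusted p = 0.338). The difference between the kainate effects at 240 h and at 24 h was tested itself and passed: it was 1.17 ± 0.29 SE on the log2 scale (adjusted p = 0.0183). For the mean of the 3 Bcl2 probe sets it was 0.56 ± 0.22 SE and did not pass (limma adjusted p = 0.143). Tested by probe set, 1 of 13 members passed for 240 h minus 24 h, L14680_g_at of Bcl2, where 5.65% of all tested probe sets did. The PBS mean was lower at 240 h (70.4) than at 24 h (97.6), and the kainate mean higher (99.9 at 240 h, 62.3 at 24 h).

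The tests over all times gave the same member. For a kainate effect at any time 1 of 13 members passed, Bcl2 (adjusted p = 0.0262, limma F test), where 9.33% of all probe sets did. For an effect that differs between times it was again Bcl2 (adjusted p = 0.0451), where 6.62% of all did. That call lay close to the threshold: it passed in 8 of 30 limma fits that each left out 1 array (adjusted p of 0.0244 to 0.117) and was lost with quantile normalization (adjusted p = 0.0899). The call for any time passed in 27 of the 30 fits and was also lost with quantile normalization (adjusted p = 0.0624). For the mean effect over the 5 times no member passed in limma, where 4.41% of all did, and Bcl2 had a mean log2 effect of −0.21 (unadjusted p = 0.0299, adjusted p = 0.194). The differences between the effects at 6 and 1 h, 24 and 6 h, and 72 and 24 h passed for 0 of 13 members, where 1.09%, 5.24% and 0.746% of all probe sets passed. For 24 minus 6 h, Casp1 (S79676_s_at, log2 0.72) had an unadjusted p of 0.00966 and Bad (rc_AA818072_s_at, log2 0.55) one of 0.0138, with limma adjusted p-values of 0.107 and 0.128.

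Among the PBS groups alone, Bcl2 differed between times as well (limma F test, adjusted p = 0.00811). Such differences passed for 2 of 13 members, where 16.9% of all tested probe sets passed. From low to high the means (± SD, n = 3) of the 10 groups were 62.3 ± 12.7 in kainate 24 h, 70.4 ± 15.0 in PBS 240 h, 86.7 ± 15.2 in kainate 1 h, 87.2 ± 22.9 in PBS 1 h, 91.3 ± 5.27 in kainate 6 h, 97.3 ± 11.2 in kainate 72 h, 97.6 ± 13.2 in PBS 24 h, 99.9 ± 16.99 in kainate 240 h, 128 ± 7.17 in PBS 72 h and 131 ± 12.04 in PBS 6 h. Most neighbours in this order lay no farther apart than the larger of their SDs. The exceptions were kainate 1 h against PBS 240 h, just beyond it, and kainate 240 h against PBS 72 h, well beyond it. The arrays of 6 and 72 h thus held the highest control levels, and each kainate group is compared here with the PBS group of its own time. In PBS groups the mean log2 ratio of the 3-prime to the 5-prime end for hexokinase was 0.80 at 6 h and 1.05 at 72 h. It was 1.41, 1.53 and 1.20 at 1, 24 and 240 h. For Gapdh it was −0.11 and −0.01, against 0.08, −0.09 and −0.04. The part of RNA quality in the differences between PBS groups was not tested.

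Genes whose log2 values followed those of Bcl2 most closely over the 30 arrays are given as a description. They were Atp4a, a subunit of the gastric proton pump (Pearson r = 0.782), Ephx2, an epoxide hydrolase (r = 0.776), Mef2d, a transcription factor of neurons and muscle (r = 0.763), and Lss, an enzyme of cholesterol synthesis (r = 0.759). The 30 arrays differ in time and treatment and were scaled alike, so these correlations mix differences between groups with those within groups. Within the 12 arrays of 6 and 72 h the 4 correlations lay between 0.473 (Mef2d) and 0.801 (Lss), and within the 18 arrays of 1, 24 and 240 h between 0.569 (Lss) and 0.723 (Ephx2).

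Bcl2l1, the other protective gene among the members, did not pass at any time on any of its 3 tested probe sets. At 24 h S78284_s_at, the brightest of them, read 108, 105 and 123 after kainate, against 114, 151 and 150.1 after PBS, with overlap (log2 difference −0.30, 95% interval −0.69 to 0.10). At 6 h it read 202, 201 and 172 after kainate, against 181, 210.2 and 189 after PBS, with a log2 difference of −0.01 (95% interval −0.41 to 0.38). The PBS groups of S78284_s_at differed between times (limma adjusted p = 0.0340), the second of the 2 members for which they did. That call passed in 22 of 30 fits without 1 array and was lost with quantile normalization (limma adjusted p = 0.0933). At 72 h its arrays did not overlap, with 153, 161 and 176 after kainate, against 181, 195 and 194 after PBS, yet the difference of −0.22 (95% interval −0.61 to 0.18) did not pass.

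Both other tested Bcl2l1 probe sets had positive differences at 72 and 240 h. At 240 h U72350_at read 145, 141 and 129 after kainate, against 140.2, 102 and 52.7 after PBS. The groups overlapped, and 1 low PBS array stood apart (log2 difference 0.60, 95% interval 0.01 to 1.20, unadjusted p = 0.0466, limma adjusted p = 0.402). At 240 h U34963_s_at read 117, 134 and 118 after kainate, against 111, 107 and 78.5 after PBS, without overlap (log2 difference 0.33, 95% interval −0.08 to 0.73). At 72 h U72350_at read 132, 124 and 174 after kainate, against 110.1, 106 and 121 after PBS, also without overlap (log2 difference 0.34, 95% interval −0.26 to 0.93). The probe sets of Bcl2l1 thus disagreed in sign at 72 h, and none of these differences passed. At 1 h U34963_s_at read 64.8, 88.2 and 104 after kainate, against 114, 91.4 and 122 after PBS, with overlap (log2 difference −0.37, 95% interval −0.77 to 0.04). The fourth, U72349_at, was too dim to be tested, at 1.46 to 26.9 with 20 of 30 arrays at the floor.

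**Figure D2:**
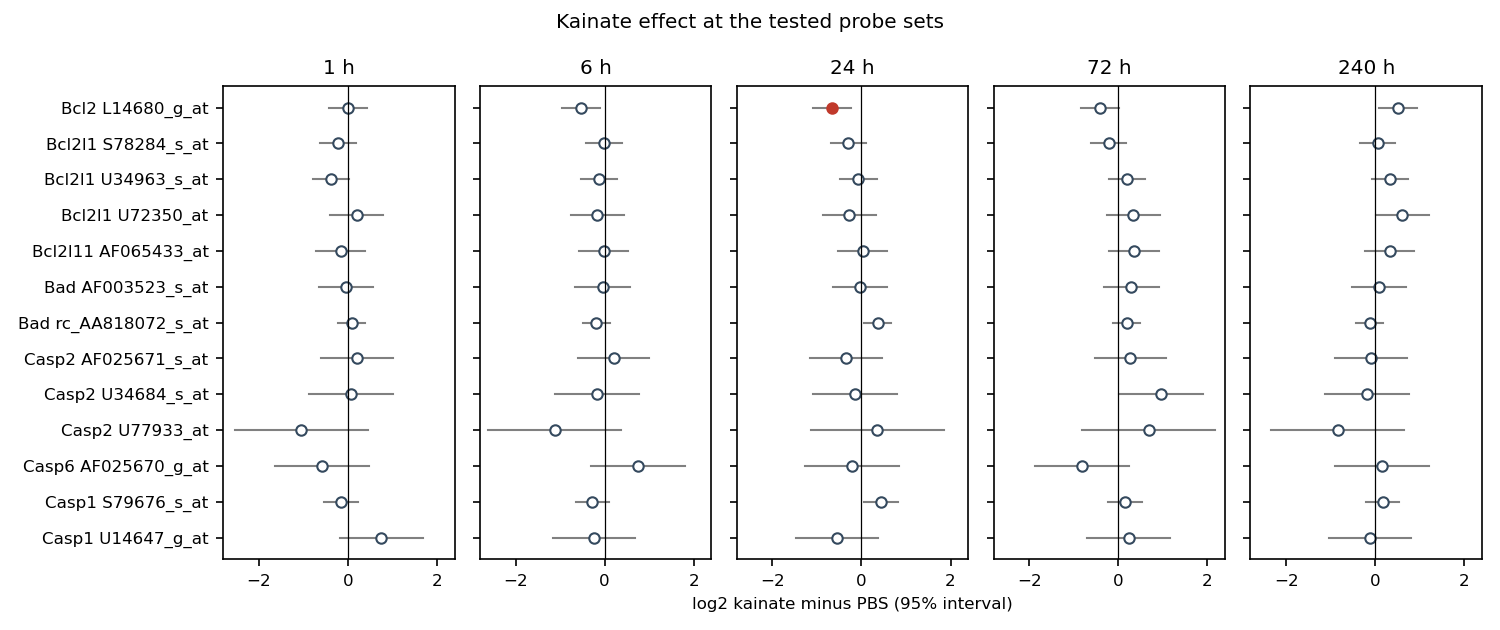
Log2 difference, kainate minus PBS, of the 13 tested member probe sets at each of the 5 times, with 95% intervals from the limma fit; filled points pass the threshold of 0.05 after adjustment and open points do not. Bcl2 at 24 h (−0.66) is the 1 filled point, and the widest intervals belong to the Casp2 probe set U77933_at.

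The BH3-only genes, whose products set the death programme going, did not pass at any time. For Bcl2l11 the 1 tested probe set, AF065433_at, read 128, 135 and 84.7 after kainate at 24 h, against 101, 125 and 109.6 after PBS, with a log2 difference of 0.03 (95% interval −0.52 to 0.58). At 72 h it read 174, 157 and 193 after kainate, against 135, 134 and 141 after PBS. At 240 h it read 163, 160.4 and 144 after kainate, against 108, 125 and 143 after PBS. Every kainate array lay above every PBS array at both late times, though the log2 differences of 0.35 (limma adjusted p = 0.914) and 0.32 (limma adjusted p = 0.673) did not pass. Its other 3 probe sets were too dim: AF065433_g_at was at the floor on all 30 arrays, AF065431_s_at on 22 and AF065432_s_at on 9.

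Bad, whose product is held in check by phosphorylation, was tested on 2 probe sets. At 24 h rc_AA818072_s_at read 508, 581 and 606 after kainate, against 524, 381 and 422 after PBS. The highest PBS array lay within the kainate range, and the log2 difference of 0.36 (95% interval 0.06 to 0.67) had an unadjusted p of 0.0215 and an adjusted p of 0.115 in limma. The second Bad probe set, AF003523_s_at, gave −0.04 at 24 h (95% interval −0.65 to 0.58), with means of 129 ± 14.3 after kainate and 131 ± 7.01 after PBS (SD, n = 3 each). The 2 probe sets of Bad thus differed in sign at 24 h. At the other 4 times their log2 differences lay between −0.19 and 0.30, and none passed.

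Of the caspases none passed at any time on a tested probe set. Casp2, an initiator caspase, was measured on 3 probe sets. At 72 h U34684_s_at read 45.0, 36.3 and 37.3 after kainate, against 20.3, 24.4 and 16.7 after PBS. These groups lay clear of each other, but the level is near the filter of 35.2, and the log2 difference of 0.96 (95% interval 0.01 to 1.91) had a limma adjusted p of 0.776. At 72 h AF025671_s_at gave 0.27 (95% interval −0.53 to 1.07) and U77933_at 0.68 (95% interval −0.81 to 2.18), both with overlap. At 24 h the 3 probe sets gave −0.14, −0.35 and 0.36, and the interval of U77933_at, from −1.13 to 1.85, is too wide to show a change of that size.

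Casp6, an executioner caspase that cleaves lamins, had 1 tested probe set, AF025670_g_at. At 72 h it read 32.4, 25.3 and 26.3 after kainate, against 47.7, 47.0 and 51.3 after PBS, with no overlap (log2 difference −0.81, 95% interval −1.86 to 0.25, limma adjusted p = 0.861). At 24 h the means were 52.2 ± 14.9 after kainate and 59.7 ± 14.7 after PBS (SD, n = 3 each), a log2 difference of −0.21. The sign of its difference changed from time to time, from −0.57 at 1 h to 0.75 at 6 h, with intervals that all include 0. The other Casp6 probe set, AF025670_at, was at the floor on all 30 arrays.

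Casp1, the inflammatory caspase, was higher after kainate at 24 h on its brightest probe set but did not pass. S79676_s_at read 145, 131 and 151 after kainate, against 93.0, 104 and 119.9 after PBS. The lowest kainate array lay above the highest PBS array, and the log2 difference was 0.44 (95% interval 0.06 to 0.81, unadjusted p = 0.0234, limma adjusted p = 0.121). U14647_at, a dim probe set under the filter on every array, read 30.05, 22.0 and 20.4 after kainate at 24 h, against 3.74, 6.97 and 14.1 after PBS. Tested without the filter it passed, with a log2 difference of 1.00 ± 0.25 SE (limma adjusted p = 0.0163). Of its 3 PBS arrays 2 lay at the floor, so this value depends on where the floor is set. Of the 8 dim member probe sets U14647_at alone passed without the filter. Among the rest U72349_at of Bcl2l1 came nearest at 24 h (log2 difference −0.69, limma adjusted p = 0.0774), with 3 of 3 kainate arrays at the floor. The share of all probe sets passing without the filter is not given here. At 6 h S79676_s_at had the other sign, with 124, 95.3 and 106 after kainate, against 150.4, 137 and 109 after PBS, and overlap (log2 difference −0.28, 95% interval −0.65 to 0.09). U14647_g_at, which passed the filter on 3 of 30 arrays, had the opposite sign at 24 h, with −0.54 (95% interval −1.46 to 0.38).

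**Figure D3:**
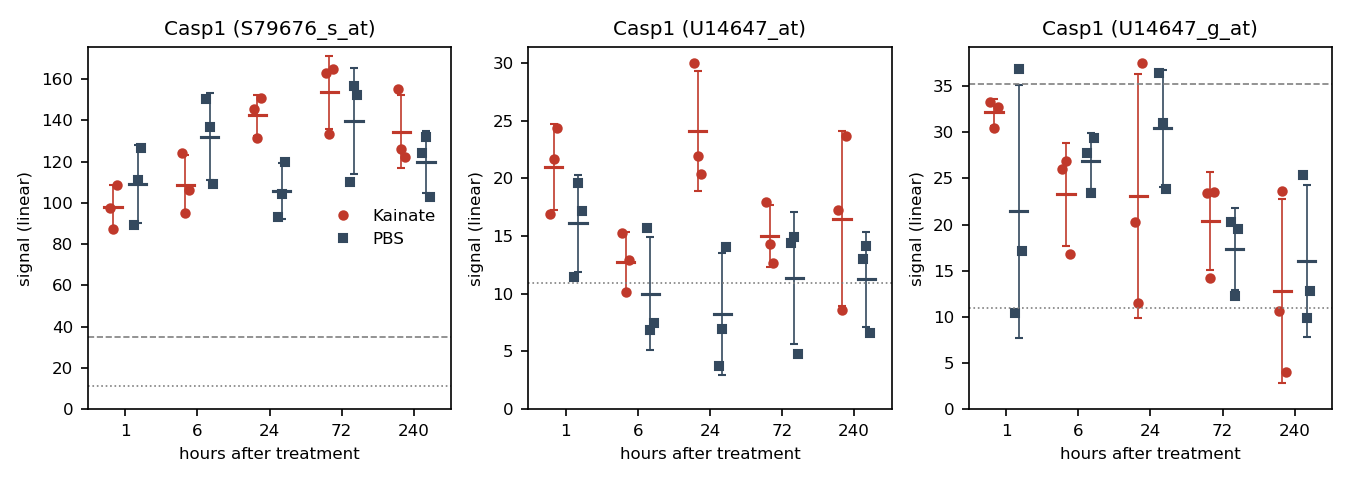
Signal of the 3 Casp1 probe sets (linear scale) on each of the 30 arrays by hours after treatment, with kainate as circles and PBS as squares; horizontal lines are group means, error bars SD (n = 3), and the dashed and dotted lines mark the filter (35.2) and the floor (10.95). At 24 h the kainate arrays lie above all PBS arrays on S79676_s_at and on the dim U14647_at, and overlap them on U14647_g_at.

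Counted over the 13 tested probe sets, 0 members passed in limma at 1, 6, 72 and 240 h, where 1.09%, 3.93%, 0.0476% and 0.0476% of all tested probe sets passed. Unadjusted p-values under 0.05 were found for 0, 1, 1 and 2 members at those times, where 9.68%, 14.7%, 6.33% and 12.2% of all tested probe sets had one, and for 3 of 13 at 24 h, where 26.4% did. By direction, 0.904% of all rose and 0.19% fell at 1 h, and 3.24% rose and 0.698% fell at 6 h. The members' median log2 differences for 1, 6, 72 and 240 h were −0.04, −0.16, 0.23 and 0.09, where the medians of all tested probe sets were −0.04, −0.11, −0.04 and 0.03. At 72 h the groups did not overlap for 6 of 13 members, 3 above and 3 below, where they did not for 22.3% of all. They did not overlap for 0 members at 1 h (10.4% of all), 1 at 6 h (27.8%), 2 at 24 h (28.2%) and 2 at 240 h (14.5%). Members of 1 gene share a transcript, so the 13 are not independent.

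Other genes of the mitochondrial pathway were lower at 24 h in 2 cases. Of 29 genes on that list 13 were tested, and Bok and Diablo fell while none rose, where 7.13% of all 3702 tested genes fell and 4.94% rose. Bok, a relative of Bax, read 252, 231 and 219 after kainate, against 378, 359 and 317 after PBS. That is 1.498-fold lower (log2 difference −0.58 ± 0.14 SE, limma adjusted p = 0.00909), and both of its tested probe sets passed. Diablo, which binds and disables inhibitors of caspases, read 114, 95.2 and 106 after kainate, against 167, 187 and 163 after PBS. No kainate array reached the PBS range, and Diablo was 1.64-fold lower (log2 difference −0.72 ± 0.21 SE, limma adjusted p = 0.0257), a call kept in 1 of 6 fits without an array of 24 h. The 13 genes had a median log2 difference of −0.21 at 24 h, against −0.06 for all genes. None passed in limma at the other times. Unadjusted limma p-values under 0.05 were found for 0 of them at 1 and 6 h, 1 at 72 h and 3 at 240 h. Of all genes 8.62%, 15.2%, 6.32% and 12.2% had one at 1, 6, 72 and 240 h.

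The other caspases, their inhibitors and substrates gave no passing gene in limma at any time, with 3 of 19 genes tested and 0 unadjusted p-values under 0.05. Sptan1, a spectrin cut by caspases and calpain, had a log2 difference of 0.22 at 6 h (limma adjusted p = 0.442), and Lmna, a lamin, 0.39 at 240 h (limma adjusted p = 0.565). The caspase-1 and interleukin-1 list had 5 of 15 genes tested and none passing in limma, with 1 unadjusted p under 0.05 over the 5 times. On it Il18, a cytokine that caspase-1 matures, read 41.1, 40.9 and 33.3 after kainate at 24 h, against 5.35, 19.97 and 33.3 after PBS, with 1 PBS array at the floor (log2 difference 0.98, limma adjusted p = 0.0805). Il1rap, the accessory chain of the interleukin-1 receptor, had 0.56 at 24 h (limma adjusted p = 0.249). The death receptor list had 3 of 15 genes tested and none passing in limma, with 1 unadjusted p under 0.05. Ngfr, the p75 neurotrophin receptor, had −0.61 at 6 h (limma adjusted p = 0.291), and the adaptor Traf2 −0.72 at 6 h (limma adjusted p = 0.429).

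Of regulators that act upstream of the family, Jun rose at 1 h and 4 genes at 6 h. Of 32 genes for p53, JNK, FoxO and survival kinase signalling 23 were tested, and after these early rises 2 rose and 3 fell at 24 h, while none passed at 72 or 240 h (unadjusted p under 0.05 for 6 and 2 genes in limma). For all genes the share that rose was 0.621% at 1 h, 2.89% at 6 h and 0.054% at both late times, and the share that fell was 0.135% at 1 h and 0.891% at 6 h. Jun, a component of AP-1 and a target of the kinase JNK, read 577, 485 and 681 after kainate at 1 h, against 194, 306 and 318 after PBS (log2 difference 1.11, limma adjusted p = 0.00149). At 6 h it read 812, 565 and 627 after kainate, against 259, 211 and 301 after PBS (log2 difference 1.38, limma adjusted p = 2.22e-05). Of 4 tested Jun probe sets 1 passed at 1 h and 2 at 6 h. The Jun call at 1 h passed in 14 of 16 alternatives.

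At 6 h Nfkbia, the inhibitor of NF-kappaB and itself one of its targets, read 155, 139.8 and 159 after kainate, against 61.6, 51.2 and 67.2 after PBS (log2 difference 1.34, limma adjusted p = 0.000185). Stat3, a transcription factor of cytokine signalling that can act on Bcl2 family genes, read 122, 72.2 and 123 after kainate at 6 h, against 35.6, 33.6 and 29.8 after PBS (log2 difference 1.64, limma adjusted p = 0.00856), on 1 of its 2 tested probe sets. This Stat3 call at 6 h passed in 13 of 16 alternatives. At 24 h both still passed, Nfkbia with a log2 difference of 0.71 (limma adjusted p = 0.0409) and Stat3 with 1.19 (limma adjusted p = 0.0447, with 1 of 3 PBS arrays at the floor), but each was lost in several alternatives. Ppp3ca, the catalytic subunit of calcineurin, which dephosphorylates Bad, fell at 24 h to 921, 1021 and 749.9 after kainate, against 1833, 1606 and 1822 after PBS. Its groups lay far apart, with a log2 difference of −0.98 ± 0.12 SE (limma adjusted p = 3.36e-06). The remaining passing genes of this list are named after their values were seen. They were Nfkb1, a subunit of NF-kappaB, at 6 h (log2 difference 1.14, limma adjusted p = 0.0141), and at 24 h Akt1, a kinase that phosphorylates Bad (−0.42, limma adjusted p = 0.0477), and Ywhaq, a 14-3-3 protein (−0.58, limma adjusted p = 0.00350).

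**Figure D4:**
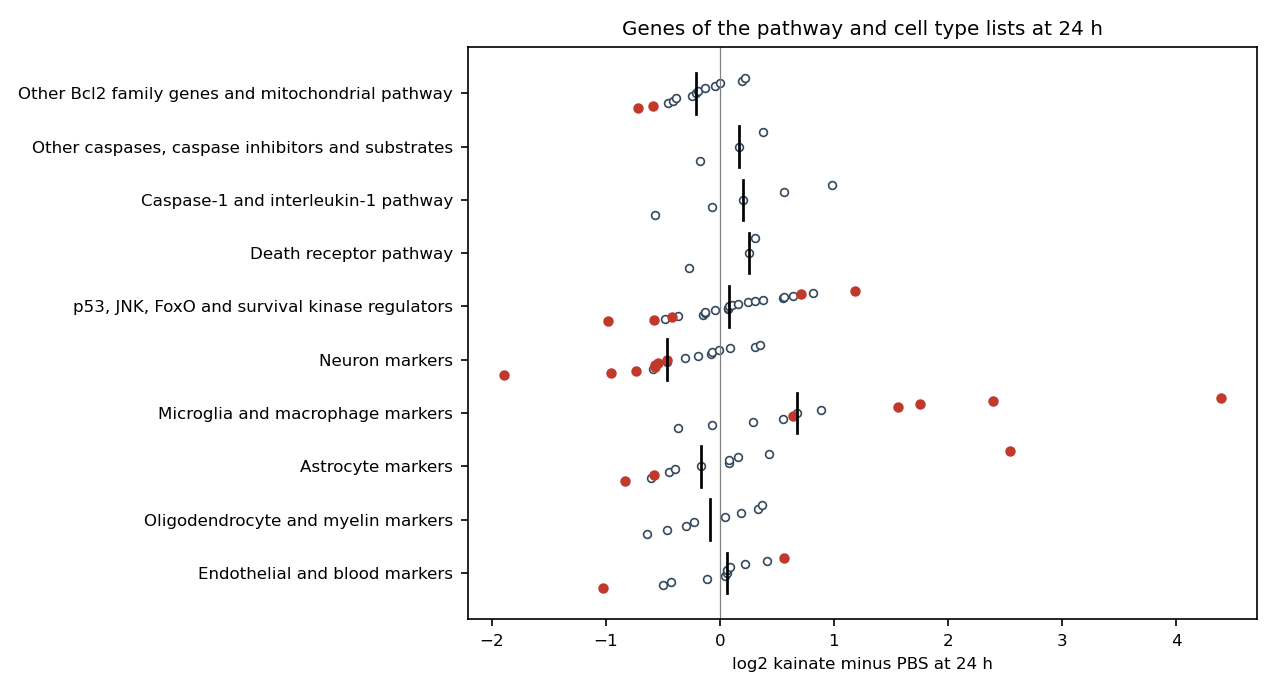
Log2 difference, kainate minus PBS, at 24 h of every tested gene on the pathway and cell type lists, 1 probe set a gene. Filled points pass the threshold of 0.05 after adjustment. Of the filled points on the 5 pathway lists, Stat3 and Nfkbia lie above 0, and Bok, Diablo, Ppp3ca, Akt1 and Ywhaq below it.

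Cell type markers moved at 24 h beside the fall of Bcl2, Bok, Diablo and Ppp3ca. Over all 3702 tested genes, 7.13% fell, 4.94% rose and 27.0% had an unadjusted p under 0.05 in limma at 24 h. Of 17 tested neuron markers 7 fell and none rose, among them Camk2a, the alpha subunit of a calcium-dependent kinase (log2 difference −1.89, with 1 kainate array at the floor), and Gria1, an AMPA receptor subunit (−0.95). Of their tested probe sets 1 of 2 passed for Camk2a and 1 of 3 for Gria1, and the mean of the Camk2a probe sets gave −0.70 (limma adjusted p = 0.0878). The summed signal of the 17 lay between 15124 and 15876 on the kainate arrays, against 18409 to 18817 on the PBS arrays. Of 11 microglia and macrophage markers 5 rose, among them Cyba, a subunit of the phagocyte oxidase (2.397), and the lectin Lgals3 (4.40, with 2 of 3 PBS arrays at the floor). Their summed signal lay between 2285 and 2649 after kainate, against 1179 to 1408 after PBS. Of 11 astrocyte markers 1 rose (Vim, 2.55) and 2 fell (Aldoc by 0.83 on the log2 scale), and sums were 12780 to 13145 after kainate, against 13205 to 14493 after PBS. Of 8 myelin markers none passed in limma, 3 had an unadjusted p under 0.05, and sums were 7346 to 7934 after kainate, against 8592 to 8855 after PBS.

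Of 11 endothelial and blood markers 1 rose (Slc2a1, 0.56) and 1 fell (Slco1a4, −1.03). The Slc2a1 call, on 1 of its 2 tested probe sets, passed in 9 of 16 alternatives, with log2 differences of 0.16 to 0.68. The sums of the 11 at 24 h were 3235 to 4309 after kainate, against 3515 to 4524 after PBS. At 240 h no marker of any of the 5 lists passed in limma, with unadjusted p-values under 0.05 for 5 of 17 neuron, 1 of 11 microglia and 1 of 11 endothelial or blood markers, where 12.2% of all genes had one, and the neuron sums were 17171 to 19012 after kainate, against 19121 to 19805 after PBS. The log2 ratio of the 3-prime to the 5-prime beta-actin control, a sign of RNA quality, lay between 0.66 and 0.95 on kainate arrays of 24 h, against 0.64 to 0.78 on PBS arrays. For Gapdh it lay between 0.02 and 0.07 after kainate, against −0.36 to 0.06 after PBS, and for hexokinase between 1.07 and 1.43 after kainate, against 1.04 to 2.29 after PBS. The outlying values belong to PBS replicate 1. Without that array, 8.22% of all tested probe sets passed at 24 h and no member did, with Bad (rc_AA818072_s_at, log2 difference 0.49, limma adjusted p = 0.0536) and Bcl2 (−0.62, limma adjusted p = 0.0971) nearest to the threshold. Bok (−0.53, limma adjusted p = 0.0406), Ppp3ca (−0.94) and Stat3 (1.54) still passed then, while Diablo (−0.74, limma adjusted p = 0.0518), Nfkbia (0.51, limma adjusted p = 0.186), Slco1a4 (−0.95, limma adjusted p = 0.0533) and Slc2a1 (0.54, limma adjusted p = 0.0618) did not. Casp1 (S79676_s_at) gave 0.35 and Il18 0.57 without it (limma adjusted p = 0.294 and 0.362). The part of cell makeup in the results at 24 h was not tested.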

How the data were processed

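Total RNA of rat hippocampus was measured on Affymetrix arrays. The deposited table holds 1 linear signal intensity per probe set and array. The software behind these intensity values is not named in the sources used here. Each array was scaled to the common mean trimmed by 2% at each end, values were floored at the 20th percentile (10.95, log2 3.45) and turned into log2, and 6303 of 8740 probe sets above the 40th percentile (35.2) on at least 3 of 30 arrays were tested. The 59 array controls were left out.

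Gene names came from the platform annotation: 7006 probe sets had 1 gene, 308 several and 1426 none, and 6985 matched a RefSeq gene. In the gene lists each gene was read on its probe set of highest mean log2 value.

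Tests used limma 3.58.1 in R 4.3.3, with a mean for each of 10 groups of 3 arrays, eBayes moderation with a trend on intensity (20 residual and 7.26 prior degrees of freedom), and Benjamini-Hochberg adjustment over all tested probe sets with a threshold of 0.05. The procedure was also run on simulated data. Python 3.11.15 with pandas 2.3.3 and matplotlib 3.10.9 served for tables, promoter matches and figures. Precision is limited by the number of arrays.

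The members and lists were chosen with earlier results of these data known. All member probe sets are named; of a pathway list, the 3 passing genes with the largest change at each time, or, where none passed, the 2 with the smallest p; of a marker list, the 2 passing genes with the largest change at 24 h; and the 4 genes most correlated with the member of smallest p. Alternatives were quantile normalization, log2 of signal plus 16, a floor at the 10th percentile, no filter, no intensity trend, array weights, the replicate number as a block, the mean of a gene's probe sets, fits of fewer times, and leaving out each array.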

Additional observations from a re-analysis of the deposited data

Results flagged for a closer look

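The kainate effect on Bcl2 (probe set L14680_g_at) differed between times: the log2 difference, kainate minus PBS, was 1.17 higher at 240 h than at 24 h (SE 0.29, limma adjusted p = 0.0183). At 240 h 2 of 3 kainate arrays lay above all PBS arrays, and at 24 h 3 of 3 lay below. Leaving out each of the 30 arrays kept the call in 29 fits, with log2 values of 1.05 to 1.33, and without replicate 3 of the kainate group at 24 h the adjusted p was 0.0610. For the mean of the 3 Bcl2 probe sets the value was 0.56 (limma adjusted p = 0.143). The PBS level itself was 70.4 ± 15.0 at 240 h, against 97.6 ± 13.2 at 24 h (SD, n = 3 each). Its part in the difference was not tested.

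The Casp1 probe set U14647_at, which the filter on dim probe sets left out, was higher after kainate at 24 h by 1.00 on the log2 scale when tested without the filter (SE 0.25, limma adjusted p = 0.0163). All 3 kainate arrays lay above all 3 PBS arrays, and 2 of the PBS arrays were at the floor of 10.95. It was the only one of the 8 dim member probe sets to pass without the filter. The tested probe set S79676_s_at gave 0.44 (adjusted p = 0.121) and U14647_g_at −0.54 (adjusted p = 0.474) at 24 h in limma.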

How the results depend on the processing

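The number of members called at 24 h was 1 (Bcl2); it was 0 with quantile normalization, with array weights, with the mean of a gene's probe sets, and in fits of the 24 h arrays alone or of the 1, 24 and 240 h arrays alone, and 2 (Bcl2 and Casp1) without the filter. At 6 h the count was 0 and became 1 (Bcl2) with array weights and in a fit of the 6 and 72 h arrays alone. The F tests over all times (any effect, or a differing one) called 1 and became 0 with quantile normalization and with the mean of probe sets. For PBS groups differing it was 2, and 1 with quantile normalization and 0 with the mean of probe sets. For 240 h minus 24 h it was 1, and 0 with the mean of probe sets. Leaving out each array gave 0 to 1 members at 24 h, for an effect at any time, for one differing between times and for 240 h minus 24 h, and 1 to 2 for PBS groups differing. Bcl2 passed in 27, 8 and 29 of these 30 fits for any effect, a differing effect and 240 h minus 24 h. Fits without an array of 1, 6 or 72 h left the log2 value of 240 h minus 24 h unchanged. The cause of the changes in member counts was not tested. The share of all probe sets that passed is given here only for the fit without PBS replicate 1 of 24 h. In the other alternatives a change in the member count cannot be set beside a change in that share. Of 64 member effects that did not pass, 30 changed sign in an alternative, none of them above 0.54 in size, and 1 passed in an alternative (Bcl2 at 6 h). Of the list genes, Diablo, Nfkbia and the marker Slc2a1 at 24 h each passed in 9 of 16 alternatives, Stat3 at 24 h in 5 and Bok in 15. Of the early calls, Stat3 at 6 h passed in 13 (limma adjusted p up to 0.0955) and Jun at 1 h in 14 (up to 0.248). Jun and Nfkbia at 6 h passed in all 16. The labels do not say whether the replicate numbers pair the arrays. Deviations of same-numbered kainate and PBS arrays correlated between −0.07 and 0.17 over 15 pairs, with 3 over 0.1, which does not settle it. With the replicate block the member counts were as before, and Bcl2 at 24 h had an adjusted p of 0.0348 in limma. Dim probe sets limit the rest: 8 of 21 members could not be tested.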
